A study of Mus musculus with 24 samples.

Results

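The 9 genes described here make, break down or switch the use of glucose in the liver: Pck1, G6pc1, Fbp1, Pklr, Pfkfb3, Ppargc1a, Foxo1, Irs2 and Igfbp1. They were chosen by name as genes of gluconeogenesis and glycolysis and genes that respond to insulin, with earlier results of these data known. Counts of members beside the share of all genes therefore describe the set and do not test it. The genes were found by matching the Ensembl identifiers of the expression tables to symbols, with G6pc1 carried as G6pc in older annotation. All 9 were present among the 55469 genes of the tables, which hold the whole series.

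RNA-seq of total RNA was compared between control mice (WT) and 3 lines, each homozygous for the loss of a single phenylalanine tRNA gene. The lines are tRNA-Phe-1-1-/-, then tRNA-Phe-2-1-/-, and lastly tRNA-Phe-3-1-/-, with GAA for the anticodon added after Phe in the labels. The study's methods describe male mice on a C57BL/6N background, with WT and mutants matched for age and litter and kept on chow. They also say that every experiment drew on mice of different litters. Its reporting summary speaks of both sexes, and the sample titles give no sex. The study examined such mice at 10 weeks, and the labels give no age. The deletions were made by CRISPR, separated by backcrossing and bred to homozygosity, so they are carried in the germline and are not restricted to liver or brain cells. Liver and brain gave 3 samples per genotype and tissue, lettered A, B and C, which makes 24 samples in all. Whether the animals had eaten and the hour of collection are not given in the sources used here, and no source names the animal behind a letter, so that p-values measure the spread between these samples.

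In the fed liver, insulin drives glycolysis, while glucagon and glucocorticoids drive gluconeogenesis during fasting. FOXO1 sits between the hormones and their targets: in the absence of insulin signalling it stays in the nucleus and switches on Pck1, G6pc1, Irs2 and Igfbp1, and insulin, through AKT, sends it out. PGC-1α, encoded by Ppargc1a, and CREB, which answers to glucagon through cAMP, act on the same promoters.

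These inputs meet at short promoter elements, and the promoters of the members that the results turn on are shown for that reason. The sequences are the 250 bases before the annotated start, from RefSeq on GRCm38.p6, written 5′ to 3′ along the gene's strand. Capitals mark matches on either strand to 4 motifs: TGACG, the inner part of a cAMP response element (17.8% of 32851 promoter windows of this length hold it); CAAAACA, the core of the insulin response element (5.56%); GTAAACA, the forkhead motif (3.17%); and CACGTG, the E-box (6.02%).
Pck1, plus strand, chr2:173152823-173153072: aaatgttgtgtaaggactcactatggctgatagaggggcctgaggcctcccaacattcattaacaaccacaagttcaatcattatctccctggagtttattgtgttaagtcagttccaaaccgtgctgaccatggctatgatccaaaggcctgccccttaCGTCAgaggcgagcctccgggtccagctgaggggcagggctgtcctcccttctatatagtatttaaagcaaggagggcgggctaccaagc
Pfkfb3, internal start, minus strand, chr2:11502091-11502340: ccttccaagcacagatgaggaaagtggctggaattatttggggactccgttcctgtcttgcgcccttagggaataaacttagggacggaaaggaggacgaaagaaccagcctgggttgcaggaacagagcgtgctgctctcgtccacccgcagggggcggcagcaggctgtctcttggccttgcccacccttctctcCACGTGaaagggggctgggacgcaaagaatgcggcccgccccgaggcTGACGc
G6pc1, plus strand, chr11:101367466-101367715: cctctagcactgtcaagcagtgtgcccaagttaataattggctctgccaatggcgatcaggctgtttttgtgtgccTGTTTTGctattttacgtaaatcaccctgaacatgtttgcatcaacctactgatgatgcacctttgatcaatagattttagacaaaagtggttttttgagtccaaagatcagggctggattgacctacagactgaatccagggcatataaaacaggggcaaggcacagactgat
Igfbp1, plus strand, chr11:7197537-7197786: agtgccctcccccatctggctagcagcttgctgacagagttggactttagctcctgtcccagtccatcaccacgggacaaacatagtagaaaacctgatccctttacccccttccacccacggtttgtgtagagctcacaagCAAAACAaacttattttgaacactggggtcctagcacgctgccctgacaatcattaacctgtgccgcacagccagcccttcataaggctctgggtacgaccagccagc
Irs2, minus strand, chr8:11008930-11009179: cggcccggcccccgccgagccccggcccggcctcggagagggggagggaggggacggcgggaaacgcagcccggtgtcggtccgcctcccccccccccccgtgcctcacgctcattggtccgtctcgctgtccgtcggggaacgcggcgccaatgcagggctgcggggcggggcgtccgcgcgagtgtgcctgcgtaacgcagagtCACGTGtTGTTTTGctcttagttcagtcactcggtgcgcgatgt
Foxo1, plus strand, chr3:52268087-52268336: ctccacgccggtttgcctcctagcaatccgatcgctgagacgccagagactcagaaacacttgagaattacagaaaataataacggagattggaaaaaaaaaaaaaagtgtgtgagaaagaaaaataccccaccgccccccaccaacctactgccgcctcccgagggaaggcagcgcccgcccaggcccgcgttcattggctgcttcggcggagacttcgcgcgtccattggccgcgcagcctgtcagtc

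TGACG matched in the Pck1 window on the reverse strand, 90 bases before the start. The internal start of Pfkfb3 had a match 6 bases before it and an E-box 53 bases before it, and the window of its other start, not shown, had 2 further matches to TGACG. The insulin response core CAAAACA matched 174 bases before the G6pc1 start, 108 bases before that of Igfbp1 and 37 bases before that of Irs2, where an E-box lay beside it. The Ppargc1a window held 1 match to TGACG. No window of Foxo1, Fbp1 or Pklr held any of these letters, and no member's window held GTAAACA. The matches describe the letters of the windows and not the binding of a factor.

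All 9 members passed the filter on low values in the liver, a mean of at least 10 normalised counts, where a normalised count is a read count divided by a size factor for the sample. Differences among genotypes were tested on log2(normalised count + 1) with limma across 15856 liver genes. Any difference among the 4 genotypes was past the threshold of 0.05 for 4 of the 9 members, against 17% of all genes tested: Foxo1 (adjusted p = 0.0006), Pck1 (adjusted p = 0.00157), Pfkfb3 (adjusted p = 0.0176) and Irs2 (adjusted p = 0.0429). The Foxo1 and Pck1 results stayed past the threshold in all 22 alternative settings and that of Pfkfb3 in 20. That of Irs2 stayed in 10, and was lost in 9 of the 12 fits that left out a sample. Without tRNA-Phe-1-1-/- replicate A only 2 members passed.

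**Figure D1:**
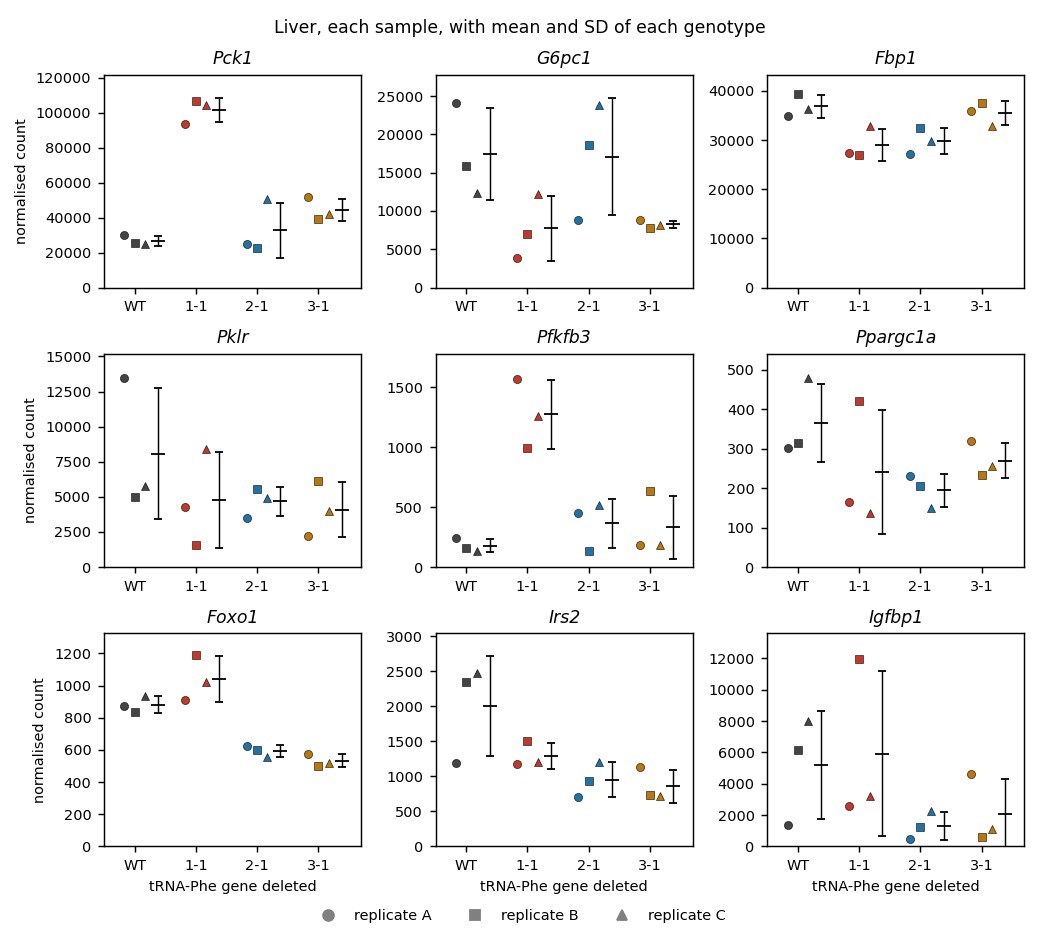
Normalised counts (vertical axes, from 0) of the 9 members in each liver sample, by genotype (horizontal axes) and replicate letter (circle A, square B, triangle C), with the mean and SD of 3 samples as a bar beside them, cut off where it would pass below 0. Pck1 and Pfkfb3 are higher in every tRNA-Phe-1-1-/- sample than in any other sample, and Foxo1 is lower in every tRNA-Phe-2-1-/- sample, and every tRNA-Phe-3-1-/- sample, than in any WT or tRNA-Phe-1-1-/- sample.

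The samples also differed in genes that follow the hour of the day, stress hormones and blood cells. These lists moved in tRNA-Phe-1-1-/-. In tRNA-Phe-3-1-/- the sums of both clock lists and of the red blood cell list also lay wholly outside the WT range. Of 9 clock genes in phase with Dbp, 7 rose in tRNA-Phe-1-1-/- livers, where their summed level was 11139 to 23282 normalised counts against 3486 to 5588 in WT, 3767 to 8355 in tRNA-Phe-2-1-/- and 6220 to 15240 in tRNA-Phe-3-1-/-. Of 6 clock genes in phase with Bmal1, which peak at the opposite time, 5 fell in tRNA-Phe-1-1-/-, with sums of 5248 to 5972 against 10089 to 10801 in WT, 7820 to 10328 in tRNA-Phe-2-1-/- and 6213 to 8231 in tRNA-Phe-3-1-/-. Of 8 glucocorticoid-responsive genes, 6 rose in tRNA-Phe-1-1-/-, with sums of 17197 to 45510 against 4258 to 8532 in WT, 3974 to 4450 in tRNA-Phe-2-1-/- and 3723 to 4672 in tRNA-Phe-3-1-/-. In no other line did a gene of these 3 lists pass the threshold. The median log2 fold change of the Dbp-phase list was 2.50 in tRNA-Phe-1-1-/- and 1.31 in tRNA-Phe-3-1-/-. That of the Bmal1-phase list was −1.04 and −1.11. Neutrophil genes were low but also moved: their sum was 166 to 399 in tRNA-Phe-1-1-/- against 50.8 to 87 in WT, 47 to 108 in tRNA-Phe-2-1-/- and 76.5 to 108 in tRNA-Phe-3-1-/-, 3 of the 3 genes tested rose, and the defining marker Ly6g was listed at 0 in every WT sample. Of 5 red blood cell genes 4 fell in tRNA-Phe-1-1-/-, with sums of 11566 to 13840 against 19732 to 26031 in WT. Their sums were 19244 to 38913 in tRNA-Phe-2-1-/- and 26855 to 33318 in tRNA-Phe-3-1-/-, the latter wholly above WT. No gene of this list passed in these 2 lines. The part of these lists in the results below was not tested.

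**Figure D2:**
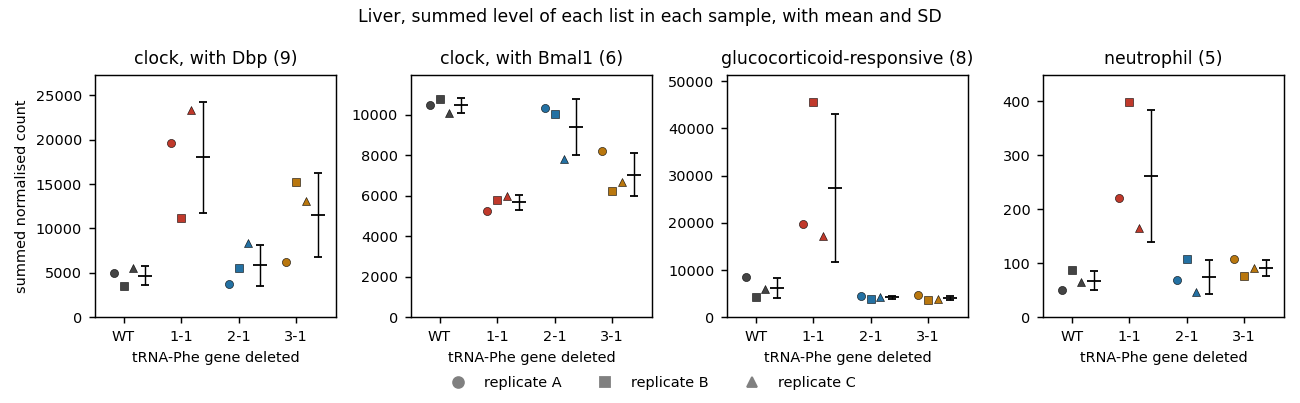
Summed normalised counts (vertical axes, from 0) of 4 gene lists in each liver sample, by genotype and replicate letter, with the mean and SD of 3 samples. The Dbp-phase and glucocorticoid-responsive lists are higher, and the Bmal1-phase list lower, in all tRNA-Phe-1-1-/- samples than in all WT samples. All tRNA-Phe-3-1-/- samples also lie above WT for the Dbp-phase list and below WT for the Bmal1-phase list.

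The livers were otherwise those of the labelled tissue. The 6 hepatocyte markers summed to 3666530 to 4374250 normalised counts in WT and 3825610 to 4551360 in tRNA-Phe-3-1-/-. Their sums lay wholly below WT in tRNA-Phe-1-1-/- (3070650 to 3567980) and in tRNA-Phe-2-1-/- (3238000 to 3528620). None of the 6 passed the threshold in any line. The 5 neuronal markers summed to 51.1 to 456 over all 12 samples, with 1 of the 2 tested lower in tRNA-Phe-1-1-/-. Among pericentral hepatocyte genes 2 of 8 rose in tRNA-Phe-1-1-/- and 1 of 8 rose in tRNA-Phe-3-1-/-, and among periportal genes 1 of 7 fell in tRNA-Phe-1-1-/-. The pericentral sum was 95343 to 139138 in WT and 189459 to 217209 in tRNA-Phe-2-1-/-, where no gene of the list passed. It was 100360 to 213411 in tRNA-Phe-1-1-/- and 117697 to 232157 in tRNA-Phe-3-1-/-. Of the macrophage and cholangiocyte markers none passed in any line, and in tRNA-Phe-1-1-/- 1 of 5 endothelial markers rose and 1 fell, and 1 of 5 stellate cell markers rose. The endothelial sum was 10579 to 11800 in WT and wholly lower in tRNA-Phe-1-1-/- (7640 to 10382). It was wholly higher in tRNA-Phe-2-1-/- (12013 to 13079) and tRNA-Phe-3-1-/- (12210 to 13945). In tRNA-Phe-2-1-/- the macrophage sum (9662 to 10770) lay just above WT (8875 to 9652). Its periportal sum (71569 to 90719) lay below WT (92957 to 116409). The part of these sums in the member results was not tested. Over all liver genes tested, 17.3% passed in tRNA-Phe-1-1-/-, 0.132% in tRNA-Phe-2-1-/- and 0.883% in tRNA-Phe-3-1-/-. In bulk tissue a lower level from fewer cells of a type cannot be told apart from less RNA per cell.

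Pck1 on chromosome 2 (173153073 to 173159274) encodes the cytosolic phosphoenolpyruvate carboxykinase, which commits oxaloacetate to glucose synthesis. Its normalised counts were 29917, 25284 and 25031 in WT livers and 93794, 106521 and 104314 in tRNA-Phe-1-1-/- livers. They were 24808, 22721 and 50666 in tRNA-Phe-2-1-/- and 51753, 39306 and 42376 in tRNA-Phe-3-1-/-. Every tRNA-Phe-1-1-/- sample lay above every other sample, every tRNA-Phe-3-1-/- sample lay above every WT sample, and in tRNA-Phe-2-1-/- replicate C stood apart from the other two. Pck1 rose from a mean of 26744 ± 2751 in WT to 101543 ± 6801 in tRNA-Phe-1-1-/- (SD, n = 3; log2 fold change 1.93 ± 0.25 SE, adjusted p = 0.000582), and this held in all 23 alternative settings. In tRNA-Phe-3-1-/- the log2 fold change was 0.73 with a 95% interval of 0.19 to 1.27 (adjusted p = 0.175), and in tRNA-Phe-2-1-/- it was 0.20 with an interval of −0.34 to 0.73 (adjusted p = 0.742).

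G6pc1 on chromosome 11 (101367716 to 101377903) encodes the catalytic subunit of glucose-6-phosphatase, which releases glucose from the hepatocyte at the end of gluconeogenesis. Its counts were 24049.7, 15882 and 12291 in WT and 3902, 6971 and 12278 in tRNA-Phe-1-1-/-. They were 8848, 18657 and 23789.9 in tRNA-Phe-2-1-/- and 8761, 7730.0 and 8224 in tRNA-Phe-3-1-/-. The samples of tRNA-Phe-1-1-/- and of tRNA-Phe-3-1-/- all lay below those of WT, with replicate C of tRNA-Phe-1-1-/- just under the lowest WT sample, while tRNA-Phe-2-1-/- overlapped WT. The log2 fold change was −1.27 ± 0.42 SE in tRNA-Phe-1-1-/- (adjusted p = 0.0579), the opposite sign to Pck1, and it was past the threshold without tRNA-Phe-1-1-/- replicate C (adjusted p = 0.0179) or without tRNA-Phe-2-1-/- replicate A (adjusted p = 0.0362). It was −1.03 in tRNA-Phe-3-1-/- with a 95% interval of −1.94 to −0.11 (adjusted p = 0.256) and −0.09 ± 0.42 SE in tRNA-Phe-2-1-/- (adjusted p = 0.947).

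Fbp1 on chromosome 13 (62864753 to 62888298) encodes fructose-1,6-bisphosphatase, the gluconeogenic enzyme that opposes phosphofructokinase. It varied little within genotypes, with 34841, 39436 and 36245 in WT, 27272, 26948 and 32829.9 in tRNA-Phe-1-1-/-, 27255, 32504 and 29834 in tRNA-Phe-2-1-/- and 36001, 37558 and 32825 in tRNA-Phe-3-1-/-. All tRNA-Phe-1-1-/- samples lay below those of WT, as did all of tRNA-Phe-2-1-/-, while tRNA-Phe-3-1-/- overlapped WT. It fell 1.27-fold in tRNA-Phe-1-1-/- (log2 fold change −0.35 ± 0.11 SE, adjusted p = 0.0448), a call that 15 of 23 alternative settings did not keep (adjusted p from 0.0515 to 0.145 in those), among them the fits without WT replicate A (0.058), B (0.145) or C (0.108) and without tRNA-Phe-1-1-/- replicate A (0.143) or B (0.11). In tRNA-Phe-2-1-/- the difference was of like size, −0.30 ± 0.11 SE, with an adjusted p of 0.237. In tRNA-Phe-3-1-/- it was −0.06 with a 95% interval of −0.29 to 0.18.

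Pklr on chromosome 3 (89136122 to 89146815) encodes the liver pyruvate kinase, the last step of glycolysis, which feeding and carbohydrate induce. Its counts were 13449, 5003 and 5754 in WT, 4268, 1593 and 8409 in tRNA-Phe-1-1-/-, 3526, 5569.7 and 4952 in tRNA-Phe-2-1-/- and 2185, 6133 and 3958 in tRNA-Phe-3-1-/-. WT replicate A was the highest of all 12 samples, and each knockout line overlapped the other WT samples. The log2 fold changes were −0.92, −0.66 and −0.96 in the 3 lines, each with an SE of 0.56, and adjusted p-values of 0.293, 0.607 and 0.441. Their 95% intervals all took in 0, that of tRNA-Phe-2-1-/- running from −1.90 to 0.57.

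Pfkfb3 on chromosome 2 (11471430 to 11554071) encodes a bifunctional enzyme that makes fructose-2,6-bisphosphate, the activator of phosphofructokinase and inhibitor of fructose-1,6-bisphosphatase. It had 239, 158 and 138 normalised counts in WT and 1569.6, 994 and 1261 in tRNA-Phe-1-1-/-. The counts were 449, 132 and 516 in tRNA-Phe-2-1-/- and 179.6, 636 and 184 in tRNA-Phe-3-1-/-. Every tRNA-Phe-1-1-/- sample exceeded every sample of the other genotypes, and both other lines overlapped WT. It rose 7.19-fold in tRNA-Phe-1-1-/- (log2 fold change 2.85 ± 0.55 SE, adjusted p = 0.00515), the largest change of any member, past the threshold in all 23 alternative settings. The log2 fold change was 0.85 in tRNA-Phe-2-1-/- with a 95% interval of −0.35 to 2.04 (adjusted p = 0.491) and 0.67 in tRNA-Phe-3-1-/- with an interval of −0.53 to 1.87 (adjusted p = 0.591).

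Foxo1 on chromosome 3 (52268337 to 52350109), the forkhead factor that insulin restrains, also varied little within genotypes. It had 871, 835 and 937 normalised counts in WT and 909, 1191 and 1024 in tRNA-Phe-1-1-/-. The lower levels were 627, 598 and 553 in tRNA-Phe-2-1-/- and 577, 499.6 and 521 in tRNA-Phe-3-1-/-. These 2 lines lay wholly below WT and below tRNA-Phe-1-1-/-, which overlapped WT. Foxo1 fell 1.65-fold in tRNA-Phe-3-1-/- (log2 fold change −0.73 ± 0.11 SE, adjusted p = 0.0229). That call was lost in 7 of 23 alternative settings, among them the fits without WT replicate A (adjusted p = 0.0545), B (0.0564) or C (0.119) and without tRNA-Phe-3-1-/- replicate B (0.0768) or C (0.065). In tRNA-Phe-2-1-/- the log2 fold change was −0.57 ± 0.11 SE with an adjusted p of 0.0684 by limma, and DESeq2 on recovered reads gave 0.000726. In tRNA-Phe-1-1-/- it was 0.23 with a 95% interval of −0.01 to 0.47 (adjusted p = 0.167).

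Ppargc1a on chromosome 5 (51454249 to 52115853), the coactivator PGC-1α of mitochondrial and gluconeogenic genes, was expressed at 302, 313 and 480.0 normalised counts in WT, 164, 421 and 136 in tRNA-Phe-1-1-/-, 230.0, 206 and 148 in tRNA-Phe-2-1-/- and 319.8, 234 and 255 in tRNA-Phe-3-1-/-. The tRNA-Phe-2-1-/- samples lay below all WT samples, and in tRNA-Phe-1-1-/- replicate B was within the WT range and the other two were below it. The log2 fold changes were −0.76, −0.89 and −0.41 in the 3 lines, with an SE of 0.36 each and adjusted p-values of 0.177, 0.288 and 0.621. Without tRNA-Phe-1-1-/- replicate B the first became −1.25 with an adjusted p of 0.0081.

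Irs2 on chromosome 8 (10984681 to 11008929) encodes a docking protein of the insulin receptor and is itself repressed by insulin. It had 1185, 2346 and 2476 normalised counts in WT, 1178, 1512 and 1201 in tRNA-Phe-1-1-/-, 709.9, 941 and 1210.2 in tRNA-Phe-2-1-/- and 1135, 735 and 716 in tRNA-Phe-3-1-/-. WT replicate A lay far below the other WT samples and within the range of 2 of the knockout lines, and only the tRNA-Phe-3-1-/- samples all lay below WT. The log2 fold changes were −0.56, −1.03 and −1.17 in the order of the lines, each ± 0.29 SE, and none passed the threshold in limma (adjusted p = 0.206, 0.158 and 0.0831). DESeq2 on recovered reads gave adjusted p-values of 0.0114 in tRNA-Phe-2-1-/- and 0.00167 in tRNA-Phe-3-1-/-. Without WT replicate A the limma values were −0.90 (adjusted p = 0.0303) in tRNA-Phe-1-1-/- and −1.52 (adjusted p = 0.0449) in tRNA-Phe-3-1-/-.

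Igfbp1 on chromosome 11 (7197787 to 7202546) encodes a secreted binding protein of insulin-like growth factors whose transcription insulin shuts down within a short time. It was the most variable member, at 1351, 6185 and 8022 normalised counts in WT, 2559, 11984 and 3244 in tRNA-Phe-1-1-/-, 499, 1211 and 2247 in tRNA-Phe-2-1-/- and 4610.4, 605 and 1091 in tRNA-Phe-3-1-/-. The highest sample exceeded the lowest 5.94-fold within WT and 7.62-fold within tRNA-Phe-3-1-/-, and each line overlapped WT. The log2 fold changes of 0.19, −1.87 and −1.49 had an SE of 0.89, and their 95% intervals, −1.76 to 2.14, −3.82 to 0.07 and −3.43 to 0.46, all took in 0. The sign of the tRNA-Phe-1-1-/- value depended on single samples: it was −0.60 without WT replicate A and −0.50 without tRNA-Phe-1-1-/- replicate B.

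The spread within genotypes was unequal among members. The SD was 5.84% of the mean for Foxo1 and 6.39% for Fbp1 in WT livers, but 57.9% for Pklr and 66.4% for Igfbp1, where the median over all liver genes tested was 12.7%. In WT, replicate A had the highest Pklr and the lowest Igfbp1, Irs2 and Ppargc1a of its genotype. Replicate B of tRNA-Phe-1-1-/- and replicate A of tRNA-Phe-3-1-/- showed the reverse, with the lowest Pklr and the highest Igfbp1, Irs2 and Ppargc1a of their genotypes. In tRNA-Phe-2-1-/- replicate A had the lowest Pklr, Igfbp1 and Irs2 and the highest Ppargc1a, so the pattern was not shared by all genotypes.

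In tRNA-Phe-1-1-/- livers 3 of 9 members passed the threshold (Pck1 and Pfkfb3 higher, Fbp1 lower) where 17.3% of all liver genes tested did. In tRNA-Phe-3-1-/- 1 of 9 passed (Foxo1, lower) against 0.883% of all genes. In tRNA-Phe-2-1-/- 0 of 9 passed in limma and in edgeR and 2 in DESeq2, where limma called 0.132%, edgeR 0.126% and DESeq2 3.13% of all genes. By unadjusted p under 0.05 in limma, 4 of 9 members passed in each of the 3 lines, where 31.8%, 14.9% and 16.1% of all genes did. The counts were not compared between lines by a test. Samples did not overlap with WT for 4, 3 and 4 of the 9 members in the 3 lines, in the order of their names, where 34.8%, 25.4% and 19.9% of all genes did not overlap. The median log2 fold changes of the members were −0.35, −0.57 and −0.73 in the 3 lines, beside medians of −0.01, 0.00 and 0.01 over all genes. The 3 comparisons share the WT samples.

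**Figure D3:**
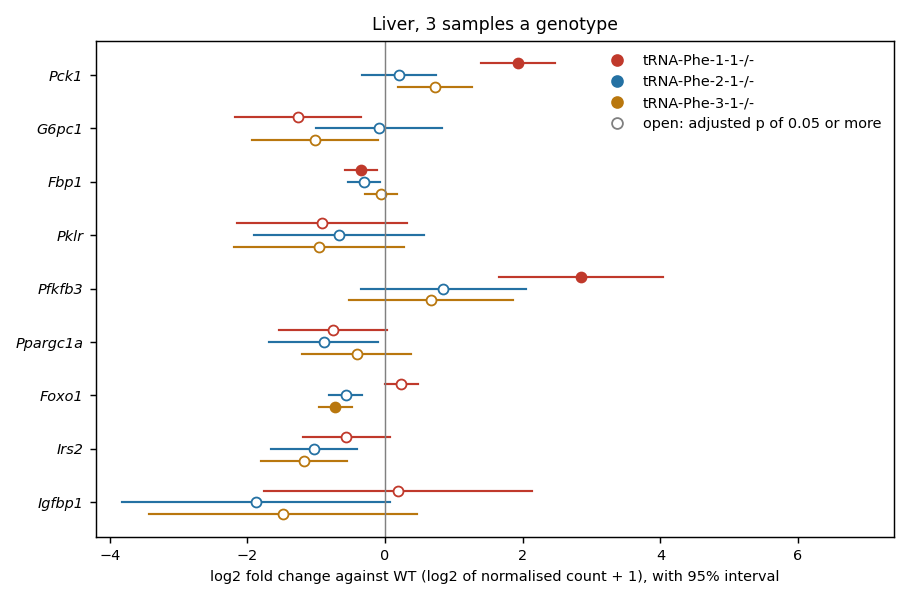
Log2 fold change against WT (horizontal axis) with 95% interval of each member (vertical axis) in the 3 lines, from limma with 3 liver samples per genotype; filled points are past an adjusted p of 0.05. Pck1 at 1.93 and Pfkfb3 at 2.85 in tRNA-Phe-1-1-/- stand furthest to the right, and the intervals of Igfbp1 and Pklr are wide.

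Set against each other, the lines differed in the same 3 members when tRNA-Phe-1-1-/- was one of the pair. Against tRNA-Phe-2-1-/-, tRNA-Phe-1-1-/- had more Pck1 (3.32-fold, adjusted p = 0.00116), Pfkfb3 (4.00-fold, adjusted p = 0.03) and Foxo1 (1.75-fold, adjusted p = 0.00096), so 3 of 9 passed against 15.9% of all genes. Against tRNA-Phe-3-1-/-, it had more Pck1 (2.30-fold, adjusted p = 0.00814), Pfkfb3 (4.53-fold, adjusted p = 0.0209) and Foxo1 (1.95-fold, adjusted p = 0.00039), 3 of 9 against 16.1% of all genes. The Pck1 and Foxo1 differences held in all 23 alternative settings, that of Pfkfb3 in 17 and 20. Without tRNA-Phe-1-1-/- replicate A its adjusted p was 0.0944 against tRNA-Phe-2-1-/- and 0.0725 against tRNA-Phe-3-1-/-, and the other fits without a sample that lost the call were those without tRNA-Phe-1-1-/- replicate B (0.05) or C (0.0582) or tRNA-Phe-2-1-/- replicate B (0.111) in the first pair, and without tRNA-Phe-3-1-/- replicate A (0.0664) or C (0.0742) in the second. Between the tRNA-Phe-2-1-/- line and that of tRNA-Phe-3-1-/- 0 of 9 members passed in limma, edgeR and DESeq2, where 0%, 0% and 0.183% of all genes did. By unadjusted p under 0.05 in limma 2 of 9 passed, against 6.68% of all genes. The largest of these differences was in G6pc1, which was higher in every tRNA-Phe-2-1-/- sample than in any tRNA-Phe-3-1-/- sample (log2 difference 0.94 with a 95% interval of 0.02 to 1.85, adjusted p = 0.735).

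The other genes of these pathways were taken from 5 lists of 103 genes, of which 101 were tested in the liver. In tRNA-Phe-1-1-/- 34 of them passed the threshold, 14 higher and 20 lower, beside the 17.3% of all genes. In tRNA-Phe-3-1-/- 2 passed, both lower, beside 0.883% of all genes, and in tRNA-Phe-2-1-/- none did, beside 0.132%.

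Of the 23 other glycolytic enzymes and regulators, 3 rose and 6 fell in tRNA-Phe-1-1-/-, with a median log2 fold change of 0.05. Pfkfb2 and Pfkfb1, which make and break down the same fructose-2,6-bisphosphate as Pfkfb3, rose 2.33-fold (1.22 ± 0.13 SE on the log2 scale, adjusted p = 0.000259) and 1.88-fold. The falls were led by the aldolase Aldoc (−0.74 ± 0.19 SE on the log2 scale) and the muscle-type phosphofructokinase Pfkm (−0.58 ± 0.11 SE). Of 16 tested genes of gluconeogenesis and its substrate supply, 2 rose and 2 fell (median 0.01): Slc37a4, the transporter that feeds glucose-6-phosphate to the phosphatase, rose from 3407 ± 1586 to 7888 ± 3030.1 normalised counts (SD, n = 3, adjusted p = 0.0498, groups overlapping), Gpt2 rose 1.53-fold, and Slc25a11 and Mdh1 of the malate shuttle fell 1.32-fold and 1.22-fold.

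Among 17 regulators of the fasting response 3 rose and 4 fell in tRNA-Phe-1-1-/- (median 0.18). The acute-phase and gluconeogenic factor Cebpb had 764, 661 and 484 normalised counts in WT and 2667, 2678 and 2671 in tRNA-Phe-1-1-/-, a 4.27-fold rise (2.09 ± 0.22 SE on the log2 scale, adjusted p = 0.000195), and Klf15 rose 1.64-fold. Pdk4, which blocks the entry of pyruvate into the citric acid cycle and normally rises with fasting, went the other way, from 816, 699 and 746 to 69.6, 112 and 116 (−2.95 ± 0.30 SE, adjusted p = 0.000163). It was also the 1 regulator that passed in tRNA-Phe-3-1-/-, at 247, 149 and 165 (−2.04 ± 0.30 SE, adjusted p = 0.0229). Nr0b2, the orphan receptor SHP, fell 2.47-fold.

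In insulin signalling 5 of 29 genes rose and 4 fell in tRNA-Phe-1-1-/- (median −0.01). Socs3 and Ptpn1, which dampen signalling from the insulin receptor among others, rose 5.69-fold (2.51 ± 0.31 SE on the log2 scale, adjusted p = 0.000529) and 1.86-fold. Mlxipl, which encodes the carbohydrate-sensing factor ChREBP that acts on Pklr, fell from 10460.1, 8383 and 11275 to 4843, 3856 and 5857 (−1.06 ± 0.19 SE, adjusted p = 0.00312) and was also lower in tRNA-Phe-3-1-/- at 5107, 5927 and 4239 (−0.98 ± 0.19 SE, adjusted p = 0.0387). Igfbp2 fell 2.05-fold. In glycogen metabolism 1 of 16 rose and 4 fell (median −0.11): Ppp1r3c, the subunit that brings protein phosphatase 1 to glycogen, fell from 7862, 3351 and 4962 to 572, 410.0 and 743 (−3.18 ± 0.30 SE, adjusted p = 0.000121), Phka2 fell 1.69-fold, and the glycogen-binding Stbd1 rose 2.17-fold.

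These counts changed when single samples were left out, and the counts over all genes in those fits were not set beside them. Without WT replicate C they were 4, 0, 3, 5 and 2 in the order above, in place of 9, 4, 7, 9 and 5. Those of the gluconeogenic list also moved to 0 without tRNA-Phe-1-1-/- replicate A, to 1 without WT replicate B and to 2 without tRNA-Phe-1-1-/- replicate B, tRNA-Phe-2-1-/- replicate B or C, or tRNA-Phe-3-1-/- replicate B or C, and that of the fasting regulators to 4 without WT replicate B or tRNA-Phe-1-1-/- replicate B. In tRNA-Phe-3-1-/- no fasting regulator passed without WT replicate A, B or C or tRNA-Phe-3-1-/- replicate B or C, and Mlxipl did not pass in 9 of the 12 fits that left out a sample.

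**Figure D4:**
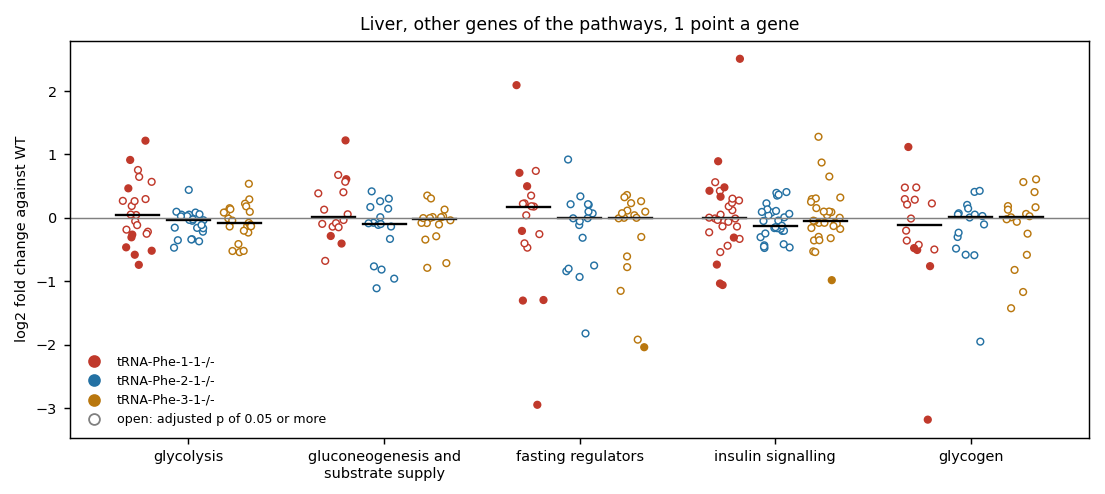
Log2 fold change against WT (vertical axis) of each tested gene of the 5 wider lists (horizontal axis) in the 3 lines, 1 point a gene, filled where the adjusted p is under 0.05, with the median of each list as a black line. Filled points lie above and below 0 in every list in tRNA-Phe-1-1-/-, and the medians stay near 0.

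In the brain 5 of the 9 members passed the filter, and the tables of the 2 tissues were normalised separately, so levels are compared within a tissue only. Pfkfb3, which astrocytes use more than neurons, was the 1 member past the threshold for any difference among genotypes (adjusted p = 0.0263), where 0.634% of 19228 genes were. Its normalised counts were 895, 882 and 836 in WT, 1095, 1065 and 1213 in tRNA-Phe-1-1-/-, 724, 681 and 746 in tRNA-Phe-2-1-/- and 684, 561 and 744 in tRNA-Phe-3-1-/-. As in the liver, every tRNA-Phe-1-1-/- sample was above every other sample, but here the samples of the other 2 lines lay below WT.

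Between lines, Pfkfb3 was 1.57-fold higher in tRNA-Phe-1-1-/- than in tRNA-Phe-2-1-/- (log2 difference 0.65 ± 0.10 SE, adjusted p = 0.025; 1 of 5 members against 0.53% of all genes) and 1.70-fold higher than in tRNA-Phe-3-1-/- (0.77 ± 0.10 SE, adjusted p = 0.00764; 1 of 5 against 2.11%). Against WT its log2 fold changes were 0.37, −0.28 and −0.40 in the 3 lines, with an SE of 0.10 and adjusted p-values of 0.121, 0.892 and 0.212. No member passed against WT in limma or edgeR in any line, where 1.05%, 0% and 0% of all genes passed in limma, and 0.973%, 0% and 0% in edgeR. By unadjusted p under 0.05 in limma 2, 1 and 3 of the 5 passed, where 15.9%, 5.57% and 12.3% of all genes did. DESeq2 called Pfkfb3 in tRNA-Phe-1-1-/- (adjusted p = 0.0332), where it called 4.55% of all genes, and in tRNA-Phe-3-1-/- (adjusted p = 0.0384), where it called 1.93%. Between the tRNA-Phe-2-1-/- line and that of tRNA-Phe-3-1-/- none of the 5 passed in limma, edgeR or DESeq2, where 0%, 0% and 0.863% of all genes did. None had an unadjusted p under 0.05 in limma, against 9.93% of all genes. The first difference between lines was lost without any single sample of tRNA-Phe-1-1-/- or tRNA-Phe-2-1-/- (adjusted p from 0.053 to 0.12), and the test over 4 genotypes in 8 of 12 fits without a sample. In the same brains 6 of 8 glucocorticoid-responsive genes rose in tRNA-Phe-1-1-/-, with a summed level of 14280 to 19378 against 8214 to 9517 in WT, 7058 to 9244 in tRNA-Phe-2-1-/- and 7679 to 8325 in tRNA-Phe-3-1-/-, and 2 of 9 clock genes in phase with Dbp rose. Oligodendrocyte markers summed to 33496 to 61776 in tRNA-Phe-1-1-/- brains and 87058 to 102597 in WT, with none of the 4 past the threshold. Their sums were 48182 to 112985 in tRNA-Phe-2-1-/- and 57709 to 126365 in tRNA-Phe-3-1-/-, where replicates A and B of each line lay below every WT sample. Astrocyte markers summed to 24311 to 24993 in tRNA-Phe-1-1-/- and 22062 to 25946 in WT. The part of these lists in the Pfkfb3 result was not tested.

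The other brain members gave wide intervals or low levels. Ppargc1a had 799 to 1332 normalised counts over the 12 samples and Irs2 1169 to 2274, with overlap between each line and WT. Foxo1 had 234, 276 and 243 in WT and 434, 362 and 454 in tRNA-Phe-3-1-/-, every sample higher, on the opposite side of WT to the liver (log2 fold change 0.73 ± 0.26 SE, adjusted p = 0.309). Its values in tRNA-Phe-1-1-/- (221 to 422) and tRNA-Phe-2-1-/- (239 to 489) overlapped WT.

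Pck1 was close to absent, at 54.7, 24.3 and 14.7 in WT, 64.2, 3.12 and 2.00 in tRNA-Phe-1-1-/-, 7.18, 5.58 and 13.3 in tRNA-Phe-2-1-/- and 0, 0 and 5.92 in tRNA-Phe-3-1-/-. All samples of the last 2 lines lay below WT, and none of the 3 lines passed the threshold (adjusted p = 0.531, 0.938 and 0.23). Alb, 1 of the 6 hepatocyte markers, was also found in these samples, at 625, 227 and 140.0 in WT, 851, 5.20 and 36.1 in tRNA-Phe-1-1-/-, 309.8, 599 and 877 in tRNA-Phe-2-1-/- and 3.23, 9.60 and 36.5 in tRNA-Phe-3-1-/-. The 6 together did not follow Alb. They summed to 18669, 9752 and 21564 in WT and 5477, 6039 and 6122 in tRNA-Phe-1-1-/-. The sums were 8418, 6246.5 and 65519 in tRNA-Phe-2-1-/- and 22553, 6867 and 39159 in tRNA-Phe-3-1-/-. The part of these markers in the Pck1 values was not tested. G6pc1, Fbp1, Pklr and Igfbp1 did not reach the filter, with highest samples of 28.2, 28.2, 22.7 and 3.23 normalised counts. The brain samples carried their neuronal markers, which summed to 73863 to 148083.

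**Figure D5:**
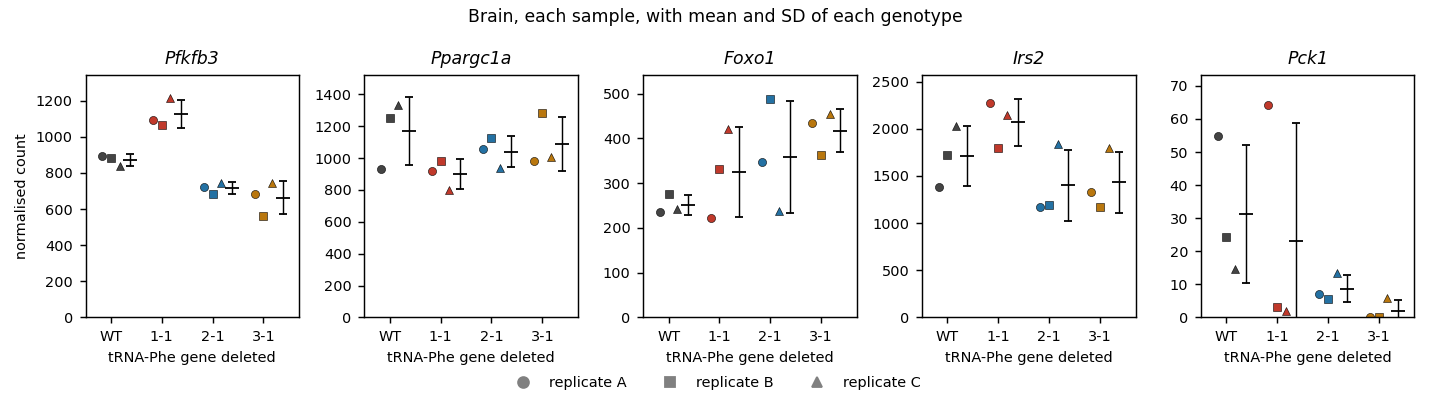
Normalised counts (vertical axes, from 0) of the 5 members tested in the brain, by genotype and replicate letter, with the mean and SD of 3 samples, cut off where it would pass below 0. Pfkfb3 is at 1065 or more in the tRNA-Phe-1-1-/- samples and at 895 or less in all others, and Pck1 stays at 64.2 or less.

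For each member, the liver genes whose pattern was most like it were looked for among 12382 genes with a mean of at least 50, by Pearson correlation of log2 values over the same 12 liver samples. These are descriptions of libraries that share genotypes, and carry no test. Pck1 was closest to Polr1c, a subunit of RNA polymerases I and III (r = 0.98), and to the syndecan Sdc4 (r = 0.96). Pfkfb3 was closest to Tepsin (r = 0.97) and Snap23 (r = 0.96), and Foxo1 to the lipoprotein receptor Lsr (r = 0.96) and to Slc35c1 (r = 0.95). Pklr lay near Stk11ip (r = 0.95) and Khk, the ketohexokinase that starts fructose breakdown (r = 0.94). Irs2 lay near Gpatch4 and Kmt2d, Igfbp1 near Spred2 and Sod3, Ppargc1a near Tpst2 and Lyrm7, Fbp1 near Cyp2c38 and Serpinc1, and G6pc1 near Gm49463 and Myh14, with r between 0.88 and 0.93 in these 10 cases.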

How the data were processed

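Liver and brain RNA of 4 genotypes, 3 samples each, was sequenced, with group and replicate letter read from each title. By the study's methods and the submitters' processing notes, reads were trimmed (Trim Galore, cutadapt), aligned with STAR to GRCm38.p6 and quantified with Salmon in strand-aware mode with bias correction, and DESeq2 was run per tissue. The deposited values are a signal, normalised counts that the authors made by dividing each sample's estimated counts by a size factor, which assumes that most genes did not change. The deposited comparison tables (log2 fold changes, errors and s-values of the authors) were not used, and 0 columns of per-sample values were left out. Within a column the values were whole multiples of a step, and division by it gave whole reads for 100% of values within 0.001, 32276896 to 51584522 per liver sample and 30365760 to 46225360 per brain sample.

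Each tissue was fitted separately with limma 3.58.1 in R 4.3.3 on log2(normalised count + 1) over its 12 samples, with a variance trend, for genes with a mean of at least 10. Tests were two-sided, with Benjamini-Hochberg adjustment per comparison over all genes and a threshold of 0.05. Fold changes are on this log2 scale and understate those of low genes. edgeR 4.0.16 (quasi-likelihood) and DESeq2 1.42.0 on the recovered reads, other pseudocounts, filters and normalisations, a replicate block, 2-group fits and the removal of each sample in turn were alternatives. The code was tested on simulated data. Members and gene lists were chosen with earlier results of these data known. All 9 members were named, and from each wider list up to 2 largest rises and 2 largest falls per line with a mean of at least 50. Symbols came from GENCODE, and coordinates and promoters from RefSeq on GRCm38.p6.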

Additional observations from a re-analysis of the deposited data

Results flagged for a closer look

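Pck1 and Foxo1 in tRNA-Phe-3-1-/- were picked out because every sample of the line lay on opposite sides of WT in the 2 tissues. The mean normalised count of Pck1 in tRNA-Phe-3-1-/- was 1.66 times that of WT in the liver and 0.0632 times that of WT in the brain, where it was close to absent (0 to 54.7 in these samples). For Foxo1 the ratio was 0.605 in the liver and 1.66 in the brain. The difference between the tissues was not tested, since the tables were normalised separately, and of these 4 comparisons only Foxo1 in the liver was past the threshold.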

How the results depend on the processing

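Over the alternatives, 291 of the counts of members called stayed within 1.5 times the reported count and 29 moved, and 752 of the log2 fold changes of members kept their sign and side of the threshold, 39 lost a call, 9 gained one and 5 reversed. The latter cover the liver comparisons with WT and the 8 differences between lines that were past the threshold. Outside them, Fbp1 between tRNA-Phe-1-1-/- and the tRNA-Phe-3-1-/- line and G6pc1 between tRNA-Phe-1-1-/- and the tRNA-Phe-2-1-/- line, both in the liver, each gained a call in 2 of 23 settings. DESeq2 on recovered reads called more members against WT than the 0, 1, 0 and 0 of limma: 2 in tRNA-Phe-2-1-/- liver, 2 in tRNA-Phe-3-1-/- liver, 1 in tRNA-Phe-1-1-/- brain and 1 in tRNA-Phe-3-1-/- brain. Over all liver genes against WT, edgeR called 2703, 20 and 140 in the 3 lines and DESeq2 3474, 497 and 757, beside 2751, 21 and 140 by limma. Fits of only the 2 groups compared called 1 member in tRNA-Phe-2-1-/- liver, 0 in tRNA-Phe-3-1-/- liver, and, in the brain, 0 for tRNA-Phe-1-1-/- against either other line. With no variance trend 0 members differed among genotypes in the brain. Leaving out 1 sample gave 2 to 4 members for any difference in the liver, 0 to 1 for tRNA-Phe-3-1-/- against WT in the liver, 0 to 1 for any difference in the brain and, also there, 0 to 1 when tRNA-Phe-1-1-/- was set against the tRNA-Phe-2-1-/- line. Log2 fold changes that reversed were small beside their errors: Pck1 in tRNA-Phe-2-1-/- (0.20 over all samples, −0.17 to 0.41 with 1 left out, negative without its replicate C), G6pc1 in tRNA-Phe-2-1-/- (−0.09, from −0.38 to 0.33, with 0.18 without WT replicate A and 0.33 without its own replicate A) and Igfbp1 in tRNA-Phe-1-1-/- (0.19, from −0.60 to 0.68, with −0.60 without WT replicate A and −0.50 without its own replicate B). The causes were not tested.

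The replicate letters were not shown to pair the samples in the liver: correlations of the deviations of same-lettered samples ran from −0.294 to 0.236 in the liver, with 3 of 18 over 0.1. In the brain they ran from −0.164 to 0.492, with 7 of 18 over 0.1, among them all 3 between the tRNA-Phe-2-1-/- line and that of tRNA-Phe-3-1-/- (0.132, 0.205 and 0.492) and not all 3 of any other pair of genotypes. With the letter as a replicate block, 0 members in place of 1 passed in tRNA-Phe-3-1-/- liver (Foxo1, adjusted p = 0.0601), 3 in place of 4 for any difference in the liver, 2 in place of 3 in tRNA-Phe-1-1-/- liver and 2 in place of 3 when that line was set against tRNA-Phe-2-1-/- liver (Pfkfb3, adjusted p = 0.0529). In the brain the block left the count of members called as it was in every comparison, 0 between the tRNA-Phe-2-1-/- line and that of tRNA-Phe-3-1-/-. Low counts in the brain, such as 0 to 64.2 for Pck1, give wide intervals.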
